A study of Mus musculus with 6 samples.

Results

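The circRNAs described here are the 345 of 7469 listed circRNAs that had back-spliced reads in at least 5 of the 6 liver libraries. Liver RNA came from 3 C57BL/6J male mice on a high-fat diet (HFD, 60% fat) and 3 on a low-fat diet (LFD, 10% fat), all 12 weeks old, after 7 weeks on the diet and a 12 h fast. The circRNAs were chosen by detection, so their number, their abundance and the libraries in which they were found are given as a description with no test. Of the 345 members, 176 had reads in all 6 libraries and 169 had reads in 5.

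A circRNA forms when the end of an exon is joined to the start of the same exon or of one further upstream, a reaction called back-splicing. The product is a closed RNA with no free ends, which makes it resistant to the enzymes that degrade linear RNA from its ends. Back-splicing is known to be favoured by long introns on both sides of the circle, in which inverted repeats can pair. In liver, as in other tissues, many protein-coding genes host circles, usually at a level well below that of their linear mRNA. A back-spliced read crosses the junction of a circle, and it is the only read that separates the circle from its linear host. SRPBM is the authors' normalized signal, in which the back-spliced reads of a library are scaled to its mapped reads.

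The 6 libraries held 5384 to 6590 back-spliced reads each. HFD library 1 and LFD library 3 form a class with a higher share of bases at Q30 in the study's sequencing statistics than the other 4 libraries, and these libraries were also the most alike. Their Spearman correlation over the members' counts was 0.65, the highest of all library pairs, against 0.46 to 0.53 for libraries of the same diet (mean 0.49) and a mean of 0.52 for libraries of different diets. These are descriptions over 345 members that share libraries.

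The junctions of the 10 most abundant members are shown because these sequences identify the circles. Each run holds the last 15 bases of the circle in lower case and the first 15 bases in capitals, 5′ to 3′ on the strand of the host gene, so that the change of case is the back-splice junction. The positions are on GRCm38. The listed start of the Ube3a circle lies 1 bp inside the annotated exon, so its junction is printed as listed.
Rnf169, mmu_circ_0001605, chr7:99935162-99955540, minus strand: agcgttcctggcaggAGTTTATATTCAGAA
Asph, circRNA1006, chr4:9635901-9639347, minus strand: ccaaagttttattagAGGCAAAGCACGGAG
Tlcd4, mmu_circ_0010409, chr3:121228310-121235764, minus strand: tactactttgtattgGCAATGGTCTATGAC
Atxn2, mmu_circ_0012070, chr5:121802081-121803080, plus strand: cgcacgccatgtatgTACCAAATATGCCCC
Rmdn2, mmu_circ_0007033, chr17:79650302-79659473, plus strand: acactgccatctgtgGTATATTACAGCTAA
Rad52, mmu_circ_0001516, chr6:119920110-119921028, plus strand: ttctaggtagcagagCAGTACTTCCAGCCC
Rabep1, mmu_circ_0000281, chr11:70874746-70884968, plus strand: aggctataatgaaagTTTCTCTTCAGCAAC
Ube3a, circRNA1573, chr7:59240968-59247217, plus strand: tgaagctagccgaatTTAAAAAATCTCTCT
Tlk1, mmu_circ_0001032, chr2:70770004-70786995, minus strand: gacaaagaatcagagGTGCAATGGATGAGC
Gbe1, mmu_circ_0006376, chr16:70433545-70441319, plus strand: atttatctattccagGTAGTTATTACTAGT

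The Asph circle is printed whole, since it is short and lies within the coding sequence. It is made of 2 exons and is 219 bases long, and its last 15 bases, which join its first base, are in capitals.
Asph, circRNA1006: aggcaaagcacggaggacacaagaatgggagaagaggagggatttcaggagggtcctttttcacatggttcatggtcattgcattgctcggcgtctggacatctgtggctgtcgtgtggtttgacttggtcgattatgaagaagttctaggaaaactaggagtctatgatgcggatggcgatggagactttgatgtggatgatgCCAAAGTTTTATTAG

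The members were few but held a large part of the signal. They made up 15.0% to 17.8% of the circRNAs found in a library and held 15519 of the 36218 back-spliced reads. They took 41.6%, 42.8% and 44.1% of the reads of HFD 1, HFD 2 and HFD 3, and 43.8%, 43.2% and 41.8% of those of LFD 1, LFD 2 and LFD 3. The mean share was 42.8% ± 1.28 (SD, n = 3) on the HFD and 42.9% ± 1.03 (SD, n = 3) on the LFD, so the difference between diets was smaller than either SD. The summed SRPBM of the members was 681 ± 59.2 (SD, n = 3) and 661 ± 32.7 (SD, n = 3). A larger number of members was found in each HFD library (320, 322 and 323) than in each LFD library (311, 312 and 313). Over all listed circRNAs the diets overlapped, with 2131, 2043 and 1843 found on the HFD and 1752, 1791 and 2093 on the LFD. The member numbers come from the detection that chose the set, so they are a description only.

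**Figure D1:**
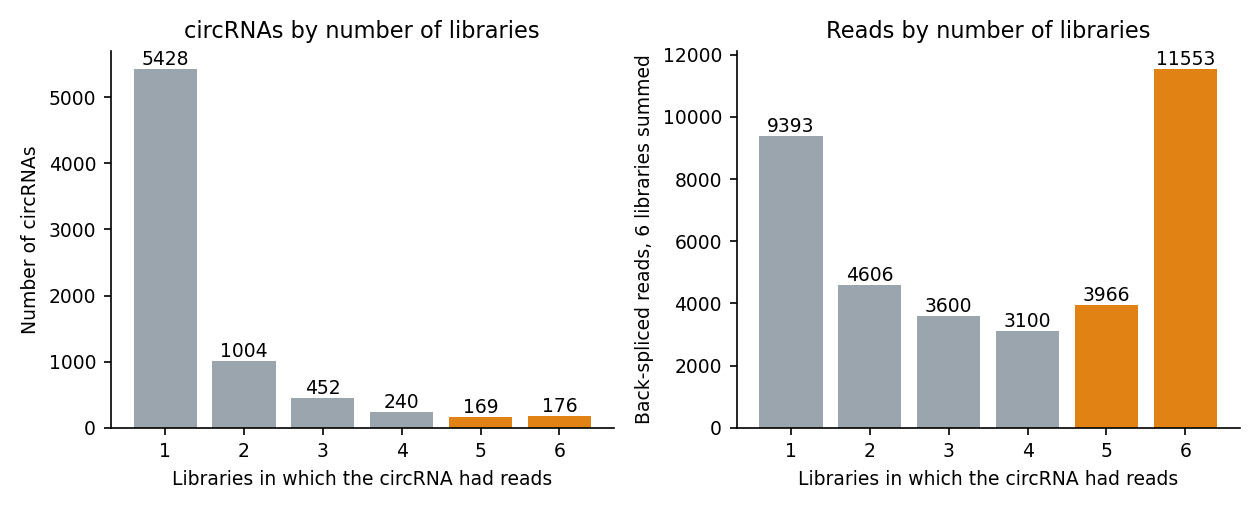
Number of circRNAs (left) and their back-spliced reads summed over 6 libraries (right), by the number of libraries in which a circRNA had reads, with members in orange. The 176 circRNAs found in 6 libraries held 11553 reads, more than the 9393 reads of the 5428 circRNAs found in 1 library.

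At the edge of the set, circRNAs found in 5 libraries had 5 to 115 reads in all (median 19), and those found in 4 libraries, just outside it, had 4 to 43 reads (median 11). Those found in all 6 had 11 to 385 reads (median 41.5). The member with the fewest reads was mmu_circ_0008115 of Insig2, which encodes a regulator of sterol synthesis, with 1 read in each library except LFD 1, where it had none. Abundance and breadth did not always go together. The circRNA ciRNA337 of Filip1l had 65 reads but only in HFD 1 (33 reads) and LFD 3 (32 reads), and so is not a member. The smallest signal that 3 reads allow was 0.688 to 0.830 SRPBM in a library, which covers counting error only, and the median member had 4 or 5 reads in each library.

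The most abundant member was mmu_circ_0001605 of Rnf169, a ubiquitin-binding protein of the DNA break response. It had 50, 68 and 82 reads in HFD 1, 2 and 3 and 62, 70 and 53 reads in LFD 1, 2 and 3, or 16.8 ± 3.76 SRPBM (SD, n = 6). circRNA1006 of Asph, which encodes an aspartate hydroxylase of the endoplasmic reticulum, had 64, 50 and 71 reads on the HFD and 39, 68 and 75 on the LFD. mmu_circ_0010409 of Tlcd4, a membrane protein gene, had 73, 57 and 63 reads and 45, 57 and 48 reads. In all of them the diets overlapped and every library held at least 39 reads.

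Other members in the first 10 come from genes of several functions. mmu_circ_0001516 of Rad52, a homologous recombination protein, had 38, 47 and 52 reads on the HFD and 34, 44 and 38 on the LFD. mmu_circ_0006376 of Gbe1, the glycogen branching enzyme, had 33, 49 and 31 reads and 25, 29 and 40 reads. mmu_circ_0007033 of Rmdn2, a gene linked to microtubule dynamics, had 59, 49 and 28 reads and 58, 27 and 53 reads. mmu_circ_0000281 of Rabep1, an effector of the endosomal GTPase Rab5, had 24, 55 and 64 reads and 42, 19 and 28 reads, with HFD 2 and HFD 3 highest. mmu_circ_0001032 of Tlk1, a kinase of chromatin assembly, had 53, 35 and 30 reads and 28, 23 and 54 reads. The first 10 together held 7.23% to 8.31% of the back-spliced reads of a library.

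**Figure D2:**
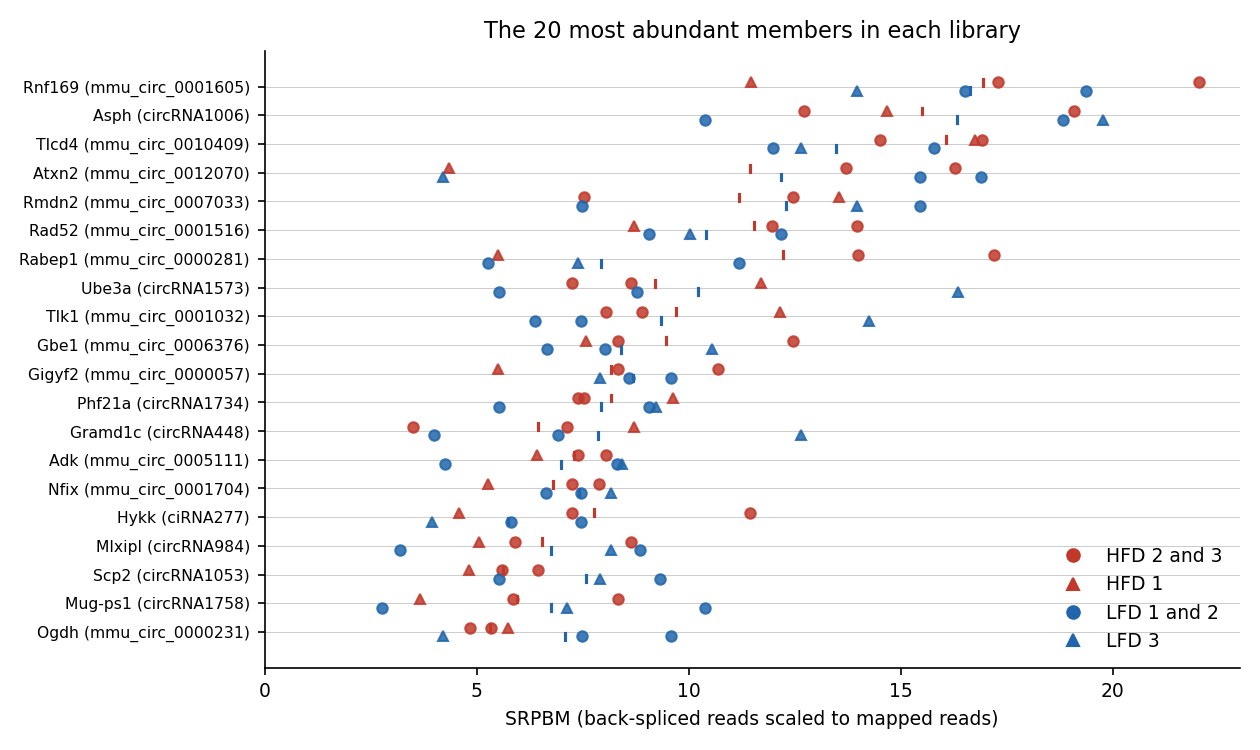
SRPBM of the 20 most abundant members in each library, HFD in red and LFD in blue, with triangles for HFD 1 and LFD 3 and short bars for the mean of each diet. The Rnf169 circle had the largest mean, 16.8 SRPBM, and the triangles of the Atxn2 circle lie apart from its other 4 points.

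Exonic circles predominated among the members. The authors' classes gave 333 exonic, 9 intronic and 3 intergenic members, an exonic share of 96.5% against 94.0% of the circRNAs found in 2 to 4 libraries and 82.5% of those found in 1. The most abundant intronic member was ciRNA277 of Hykk, which encodes hydroxylysine kinase, with 20, 45 and 27 reads on the HFD and 28, 21 and 15 on the LFD. Crp, the gene of C-reactive protein, hosts another, ciRNA309, with 7, 6 and 2 reads and 2, 8 and 12 reads. Members with a circRNA database name made up 61.1% to 63.1% of those found in a library, against 29.1% to 36.4% of the other circRNAs of that library. CircRNAs found in 4 libraries were near the members, with 58.3%, against 65.1% of those found in 5 and 60.2% of those found in 6. The share was 20.4% for circRNAs found in 1 library.

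Of the exonic members, 136 hold 2 exons and 86 hold 3, which together is 66.7% against 54.2% among circRNAs found in 1 library. The share was 60.6% for circRNAs found in 2 to 4 libraries and 62.9% for those found in 4. Another 21 consist of a single exon and 8 of 7 exons or more. Single-exon members were long for an exon, with spliced lengths of 152 to 1370 bases and a median of 422 bases over the 19 that could be placed on annotated exons. Among them are circles of Nfix and Cdyl, which encode a transcription factor and a chromodomain protein, of the kinase genes Hipk2 and Hipk3, and of Insr, the insulin receptor gene. The members with the largest number of exons include circRNA817 of Aass, the first enzyme of lysine breakdown, with 10 exons, 1293 bases and 34, 25 and 23 reads on the HFD and 17, 24 and 19 on the LFD. Over all 323 members placed on exons the median spliced length was 364 bases, against 381 bases for circRNAs found in 2 to 4 libraries and 409.5 bases for those found in 1. It was 351 bases for circRNAs found in 4 libraries, shorter than for members. Within LFD 3 the median was 361 bases for members and 353 bases for the others, while in every other library members were shorter.

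Members lay between long introns. The median upstream intron was 15253.5 bp and the median downstream intron 11478.5 bp over 322 members, against 5736 bp and 4395 bp for circRNAs found in 1 library. Both introns were longer than 10000 bp in 44.4% of members and in 17.9% of circRNAs found in 1 library. CircRNAs found in 4 libraries were nearer to the members, with medians of 12111 and 10007 bp and both introns longer than 10000 bp in 38.2%. The Asph circle lies between introns of 29433 and 24962 bp. The Rad52 and Atxn2 circles, the only members of the first 10 with both introns below 10000 bp, lie between introns of 1032 and 1443 bp and of 4289 and 3141 bp. The difference between members and other circRNAs was seen in each library, where the median upstream intron was 14925.5 to 15852 bp for members and 7378 to 8052 bp for the others.

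In 140 of 323 members (43.3%) the first exon of the circle was exon 2 of the listed isoform, against 26.4% of circRNAs found in 1 library and 32.3% of those in 2 to 4. CircRNAs found in 4 libraries were nearer to the members, with 37.7%, against 45.6% of those found in 5 and 41.1% of those found in 6. Within single libraries the share was 42.2% to 44.3% for members and 27.1% to 31.5% for the rest. The circles of Rnf169, Asph, Rabep1, Ube3a and Tlk1 start at exon 2, and those of Atxn2 and Rad52 start at exon 19 and exon 10. Only coding sequence was held by 243 members, and the length of 87 of these (35.8%) was a multiple of 3, against 38.0% among circRNAs found in 1 library. The median GC content of members, 47.8%, was also that of circRNAs found in 1 library. These features were not used to choose the members, which are also more abundant than the other circRNAs, and the part of abundance was not tested.

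**Figure D3:**
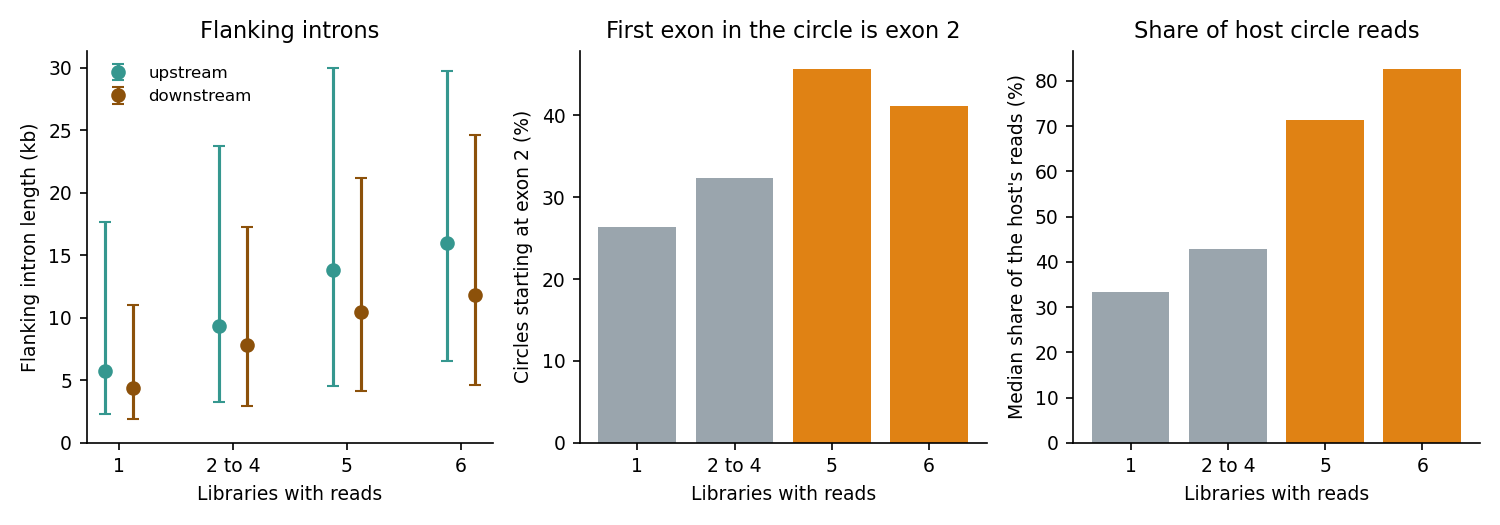
Flanking intron length in kb (points are medians, bars reach from the lower to the upper quartile), percentage of circles that start at exon 2, and median percentage of the host gene's back-spliced reads held by the circle, by number of libraries with reads. Members are the groups of 5 and 6 libraries, with median upstream introns of 13862.5 and 15963.5 bp.

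Of the 345 members, 342 come from 299 host genes and 3 are intergenic, with no host. Of the hosts, 264 have a single member. A member held a median of 76.6% of the host's back-spliced reads. This share is a description, since it comes from the counts that also decide detection. The Rad52 and Ube3a circles held 98.4% and 98.3% of their hosts' reads. Some hosts have circles that share an end. Of the 54 pairs of members of the same host, 21 share a start and 12 share an end position, to within 1 bp. The predicted gene Gm45062 hosts 5 members on chromosome 6 with a common start and 2 to 6 exons, which together had 165 reads. Ghr, the growth hormone receptor gene, hosts 3 members with 203 reads. Bckdhb, which encodes a subunit of the branched-chain ketoacid dehydrogenase, and Slco1b2, a hepatocyte uptake transporter, also host 3 each, with 185 and 74 reads. Reads of predicted genes and of the murinoglobulin pseudogene Mug-ps1 (3 members, 193 reads) may belong to related copies or neighbouring genes, so those hosts are uncertain.

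The hosts were compared with the GO terms listed by the authors, which were present for 290 of the 299 member hosts and 3401 of all 3468 hosts. Each group is a list of 3 to 9 exact term names, and a host with a related term outside the list is not counted. The 4 listed terms of transcription, which cover transcription factor activity and DNA-templated transcription and its regulation, were carried by 29 member hosts (29 of 290, against 8.29% of all hosts). A term outside that list, positive regulation of transcription by RNA polymerase II, was on 33 member hosts (11.4% against 8.47%). Listed terms of vesicle transport were carried by 30 (10.3% against 8.73%), of ubiquitination by 23 (7.93% against 6.38%), of small GTPase regulation by 19 (6.55% against 4.94%) and of protein kinases by 21 (7.24% against 5.76%). Chromatin terms were carried by 16 (5.52% against 4.50%). Terms of RNA processing and binding were carried by 24 (8.28%, against 306 of 3401 hosts), of cell cycle and DNA repair by 21 (7.24% against 7.85%), of lipid metabolism by 16 (5.52% against 5.82%) and of transmembrane transport by 8 (2.76% against 3.70%). No enrichment test was made.

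Among the ubiquitination hosts are Ube3a, an E3 ligase gene, and Ube2k, which encodes a ubiquitin-conjugating enzyme. circRNA1573 of Ube3a had 51, 34 and 27 reads on the HFD and 33, 20 and 62 on the LFD, so that the libraries HFD 1 and LFD 3 were highest. Chromatin hosts include Kmt2a, a histone H3 methyltransferase gene, whose circle had 5, 12 and 9 reads and 4, 12 and 6 reads. RNA hosts include Cnot6l, a deadenylase gene, with 9, 17 and 7 reads and 14, 10 and 8 reads. The transporter hosts Abcc2, the bile canalicular exporter, and Abcd3, a peroxisomal half-transporter, had 7, 12 and 6 reads against 9, 19 and 10, and 6, 6 and 5 reads against 5, 12 and 4. Lipid hosts include Gramd1c, a sterol transfer protein gene, with 38, 28 and 13 reads against 15, 25 and 48. Abca1, the cholesterol efflux transporter, hosts 2 members with fitted changes in opposite directions. mmu_circ_0011676 had 1, 7 and 10 reads against 10, 10 and 3 (log2 fold change -0.56). circRNA1019 had 2, 5 and 13 reads against 5, 3 and 0 (log2 fold change 1.07). In these hosts the diets overlapped.

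Hepatocyte markers were checked as hosts. Of 20 marker genes, 17 host listed circRNAs and 2 host members, Ass1 of the urea cycle and Slco1b2, with 4 members and 86 reads. Of the marker genes of other liver cells, 2 of 7 Kupffer, 3 of 7 endothelial, 1 of 7 stellate, 1 of 6 cholangiocyte and 0 of 5 T or B cell genes host any listed circRNA, and 0 of them host a member. A circle count does not measure the host's mRNA, and in bulk liver fewer cells of a type and less RNA per cell cannot be told apart.

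The comparison of the diets asks whether the broadly detected circles differ between HFD and LFD liver. Of the 345 members, 1 (0.290%) passed the unadjusted thresholds of edgeR's quasi-likelihood test (p below 0.05 and a log2 fold change of at least 1 in size), while 2.4% of the 2041 circRNAs tested passed. With a Benjamini-Hochberg adjusted p below 0.05 as the threshold, 0 members and 0% of all circRNAs tested passed in edgeR, and 1 member had an unadjusted p below 0.05. DESeq2 called 1 of the 345 members by the same unadjusted thresholds, and its share over all circRNAs tested is not given. The median log2 fold change of HFD over LFD was -0.01 over the members, with quartiles of -0.45 and 0.45, and -0.13 over all circRNAs tested. The median standard error of a member's log2 fold change was 1.21, so that a log2 fold change of 1 lay within the standard error of the median member. It rests on the fit's trended dispersion, with a median of 0.850 over the members, while a moment estimate from the members' own counts was 0.128. With limma on log2(SRPBM + 1), 20 of the 345 members had an unadjusted p below 0.05. The share over all circRNAs tested is not given for limma, so this count is not read as a difference between diets. A change of at least 1 in size was fitted for 18.3% of members and for 44.9% of all circRNAs tested. These backgrounds are not matched to the members. Of the 2041 circRNAs tested, 1696 were found in 2 to 4 libraries, with a median of 5 reads in all against 28 for members. Members have reads on both diets by their selection, so a circRNA found on 1 diet only cannot be a member. The gaps to the background are thus not read as a weaker response of the members to diet.

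The member that passed was circRNA1452 of Me1, which encodes the cytosolic malic enzyme, a source of NADPH for fatty acid synthesis. It had 5, 5 and 1 reads on the HFD and 28, 10 and 3 reads on the LFD, so the diets overlapped and LFD 1 was far above the other libraries. Its log2 fold change was -2.08 with a standard error of 0.90 (edgeR quasi-likelihood test, Benjamini-Hochberg adjusted p = 0.694). Without LFD 1 the log2 fold change was -0.98, and the call was lost there and without HFD 2 (-2.35) or HFD 3 (-1.69). The circle joins 3 exons, from exon 7 of the listed isoform, and is 322 bases long.
Me1, circRNA1452, chr9:86611853-86619834, minus strand: ggactaatagttaagATATGGCATGAATTG

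circRNA1163 of Cth, the cystathionine gamma-lyase gene of cysteine synthesis, had 31, 15 and 27 reads on the HFD and 9, 5 and 14 on the LFD. Every HFD library was above every LFD library in reads and in SRPBM, with means of 6.06 ± 1.94 and 2.49 ± 1.16 SRPBM (SD, n = 3 each), while the diets overlapped when counts were scaled by TMM. Its log2 fold change was 1.20 with a standard error of 0.63 (edgeR quasi-likelihood test, Benjamini-Hochberg adjusted p = 0.694), and its unadjusted p did not pass the threshold. It passed in 8 of 17 alternatives, among them those without HFD 2 (1.47) and without LFD 3 (1.65), and did not pass without HFD 1, HFD 3, LFD 1 or LFD 2 (0.92 to 1.22).
Cth, circRNA1163, chr3:157918426-157921036, minus strand: acaccacaaaccaagGGTTTTGAATACAGC

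In SRPBM, 24 members (6.96%) had every HFD library above every LFD library and 6 (1.74%) had every HFD library below, against 3.14% and 1.81% of all circRNAs tested. A complete separation needs reads in at least 3 libraries, which all members have by their selection, and among the 1037 circRNAs tested with that many the shares were 6.17% above and 3.57% below. With TMM-scaled counts 16 members (4.64%) lay above and 10 (2.90%) below, against 5.21% and 4.24% of the 1037. In raw counts 19 members (5.51%) lay above and 1 (0.290%) below, against 5.50% and 2.12%. The 1037 include the members and circRNAs found in only 3 or 4 libraries, and no difference between these shares was tested. Under both SRPBM and TMM scaling, 16 members lay above and 6 below, against 5.21% and 3.57% of the 1037. These separations were not called by the test, since none of the members concerned had an edgeR p below 0.05.

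Of the 16 members that lay above on the HFD under both scalings, 6 are given as examples. mmu_circ_0000495 of Erbin, a scaffold protein of ERBB2, had 15, 16 and 15 reads against 10, 7 and 7. circRNA1159 of Uox, urate oxidase, had 8, 10 and 10 reads against 5, 3 and 4. mmu_circ_0006266 of Gsk3b, a kinase of glycogen synthesis and insulin signalling, had 3, 7 and 4 reads against 2, 2 and 2. circRNA997 of Cyp3a25, a cytochrome P450 gene, had 5, 3 and 4 reads against 0, 1 and 1, and mmu_circ_0012451 of Fam126a had 3, 5 and 6 reads against 0, 1 and 1. mmu_circ_0014989 of Prmt9, an arginine methyltransferase gene, had 2, 6 and 4 reads against 0, 1 and 1, but a second entry for this circle, with a start 1 bp away, had 7 reads in LFD 1. With both entries summed its diets overlapped, and its log2 fold change was 0.19 in place of 2.21. Below on the HFD was circRNA224 of Acaca, acetyl-CoA carboxylase, the enzyme of the committed step of fatty acid synthesis. It had 10, 10 and 14 reads on the HFD and 19, 23 and 17 on the LFD (log2 fold change -0.98 with a standard error of 0.64, edgeR and Benjamini-Hochberg adjusted p = 0.694). The circle of Kansl1, a histone acetyltransferase subunit, had 3, 6 and 1 reads against 6, 9 and 8. These examples were chosen after their values were seen.

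**Figure D4:**
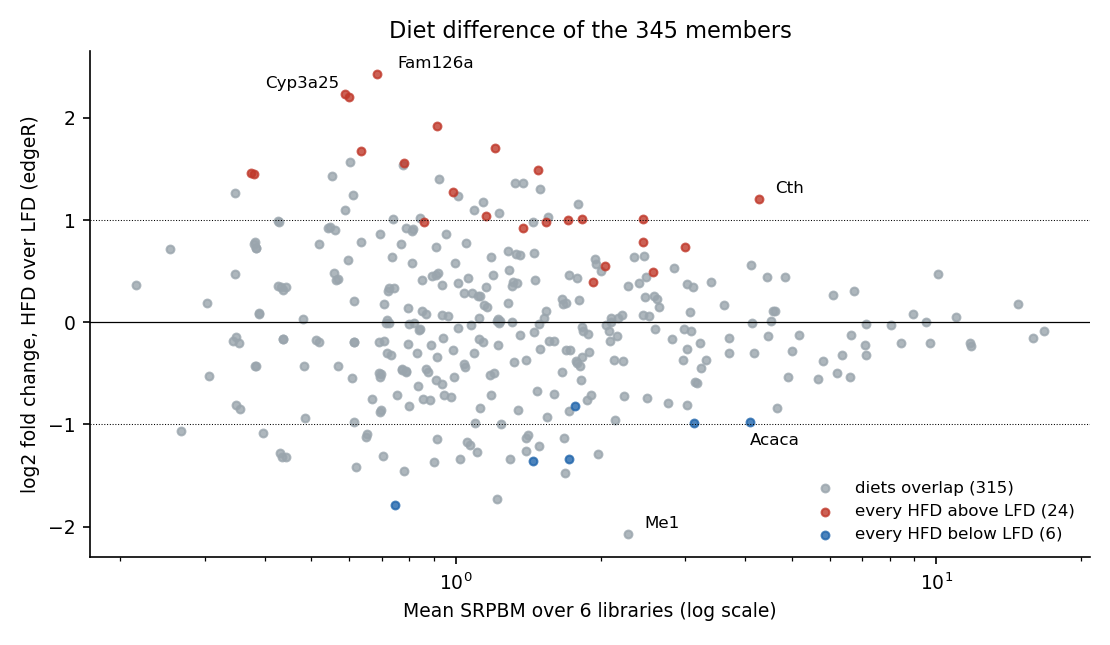
log2 fold change (HFD over LFD, edgeR) of the 345 members against mean SRPBM on a log axis, with members whose diets did not overlap in SRPBM in red (24 above on the HFD) and blue (6 below). Dotted lines mark a log2 fold change of 1 in either direction, and points with few reads spread most widely.

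Lipid and energy genes were looked at as a list. Of 71 genes, 40 host listed circRNAs (1.15% of hosts) and 9 host members (3.01% of member hosts), with 12 members in all. The list was chosen with earlier results of these data known, so the higher share among member hosts is a description only. The GO terms of lipid metabolism showed no such excess, with 5.52% of member hosts against 5.82% of all hosts. 1 of the 12 (against 2.4% of all circRNAs tested, in either direction) passed as lower on the HFD, the Me1 circle, whose call was lost in 7 of 17 alternatives. The median log2 fold change was -0.25, against -0.13 over all circRNAs tested. circRNA984 of Mlxipl, the glucose-responsive transcription factor ChREBP, had 22, 34 and 22 reads on the HFD and 12, 32 and 31 on the LFD. circRNA1053 of Scp2, sterol carrier protein, had 21, 22 and 24 reads against 35, 20 and 30. circRNA309 of Nr1h4, the bile acid receptor FXR, had 17, 26 and 25 reads against 11, 12 and 21. The diets overlapped for these 3, and the log2 fold changes were -0.13, -0.53 and 0.44. In SRPBM, 1 of the 12 members had every HFD library above every LFD library and 1 had every HFD library below. Among the 1037 circRNAs tested with reads in at least 3 libraries these shares were 6.17% and 3.57%, and no difference was tested. The first is circRNA1659, another circle of Scp2, with 13, 9 and 8 reads against 6, 4 and 8 (log2 fold change 0.55 with a standard error of 0.92), which overlapped when counts were scaled by TMM. The second is the Acaca circle described above.

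The insulin, mTOR and AMPK list of 51 genes has 9 member hosts, each with 1 member, among them Gsk3b, Insr, Prkag2 and Rps6kb1. The member hosts are 3.01% of all member hosts, and 32 genes of the list are 0.923% of all hosts. This list too was chosen with earlier results known, so these shares are a description only. Of the 9 members 0 passed the edgeR test, against 2.4% of all circRNAs tested, and the median log2 fold change was 0.15. In SRPBM the diets did not overlap for 1 of the 9, the Gsk3b circle given above, with the HFD higher. Among the 1037 circRNAs tested with reads in at least 3 libraries, 6.17% lay above and 3.57% below. The Insr circle had 9, 10 and 15 reads on the HFD and 5, 9 and 13 on the LFD. circRNA1608 of Rps6kb1, the S6 kinase gene, had 11, 6 and 4 reads against 11, 6 and 14. Of 55 genes known to host conserved circles, 7 host members. The Nfix circle had 23, 31 and 27 reads against 28, 24 and 31, the circle of Pan3, a deadenylase subunit gene, 7, 7 and 13 against 7, 6 and 10, and that of Camsap1, a microtubule minus-end protein, 4, 12 and 9 against 7, 9 and 6. The 8 members of these 7 hosts had a median log2 fold change of 0.02, and 0 of them were without overlap between diets in SRPBM. The shares among the same 1037 circRNAs were 6.17% above and 3.57% below.

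The spread between mice was measured as the variance of the counts over their mean within a diet, averaged over the diets, which is 1 for counting error alone. The median over the members was 1.78, with quartiles of 0.909 and 3.10, and 101 members (29.3%) lay below 1. The ratio was higher for abundant members, with a median of 4.85 over the first 10, so a ranking by it depends on abundance. The SD of SRPBM over its mean in 6 libraries orders members differently. It was lowest for the Tlcd4 circle (14.2%), against 33.3% for Erbin, 50.2% for Atxn2 and 90.4% for Ube2k. The Ube2k value is for 1 of 2 listed entries of its circle, with starts 1 bp apart. The member had 0 reads in LFD 3, where the second entry had 5. Such splits, described below, touched 34 members. Their median variance over mean was 2.87 for the member's own entry and 1.29 with entries summed, and it fell in 30 of the 34. The spread of split members is thus not read as spread between mice alone. The steadiest of the 65 members with at least 60 reads were the Erbin circle, with a ratio of 0.198, mmu_circ_0001624 of Mettl9, a histidine methyltransferase gene, with 0.320 (11, 14 and 10 reads on the HFD and 10, 7 and 9 on the LFD) and the circle of Rabgap1l, a Rab GTPase activator, with 0.337 (13, 13 and 11 against 7, 10 and 6).

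By the same ratio the most variable were mmu_circ_0001396 of Med13l, a Mediator subunit gene (14.2), the Atxn2 circle (13.04) and circRNA649 of Ttc39c (10.9). The Med13l circle had 35, 9 and 13 reads on the HFD and 15, 11 and 50 on the LFD, so that HFD 1 and LFD 3 stood highest. The Atxn2 circle, from the gene of the RNA-binding protein ataxin-2, had 19, 64 and 51 reads and 58, 61 and 16 reads, with HFD 1 and LFD 3 lowest. The Ttc39c circle had 26, 15 and 12 reads and 16, 0 and 36 reads.

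The Q30 class was set beside the diet as a second factor. With edgeR's quasi-likelihood test, 15 members (4.35%) passed the same unadjusted thresholds for the class, 6 higher and 9 lower in HFD 1 and LFD 3. Of all circRNAs tested 2.01% passed, and 0 members had an adjusted p below 0.05 (lowest 0.367). Most circRNAs tested were found in 2 to 4 libraries, with a median of 5 reads in all against 28 for members. A share among circRNAs of like depth is not given, so 4.35% is not read as a trait of the members. In all, 19 members had an unadjusted p below 0.05 for the class, whatever the size of the difference. The share over all circRNAs tested is not given for p alone, so this count cannot be set against a background. For the Atxn2 and Med13l circles, whose counts already showed HFD 1 and LFD 3 apart, the fitted log2 differences of these libraries from the others, -1.72 and 1.81, describe the same counts again. Other members, chosen after their values were seen, are given as examples. mmu_circ_0000635 of Alg12, a mannosyltransferase gene, had 30 and 33 reads in HFD 1 and LFD 3 and 12 to 15 in the other libraries. circRNA874 of Hebp1, a heme-binding protein gene, had 20 and 29 reads against 4 to 10. circRNA2077 of Tra2b, a splicing regulator, had 0 and 4 reads against 8 to 17.

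Both libraries of the class lay below all the other 4 in 40 members (11.6%) and above them in 39 members (11.3%). Lying below needs reads in at least 4 libraries, and among the 585 circRNAs tested with that many the shares were 11.6% below and 9.40% above, close to those of the members. Each class holds libraries of both diets, and with the class as a factor 1 member was called for diet, although the Me1 circle no longer passed (log2 fold change -1.83). The Cth circle then passed (log2 fold change 1.23, edgeR and Benjamini-Hochberg adjusted p = 0.684). What the class stands for besides sequencing quality was not tested.

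The table lists some circles under 2 entries with starts 1 bp apart and the same end. This touched 34 members (9.86%), near the 9.29% of all listed circRNAs. All 34 were among the members found in 5 libraries (20.1% of those), and 0 were among the 176 found in all 6. The share was 22.1% for circRNAs found in 4 libraries and 7.30% for those found in 1. For 33 of the 34, the second entry had its reads in the library where the member had none, and in only 1 library did a member and its second entry both have reads. The pairs of Asph and Arl8b, a lysosomal GTPase gene, are shown to make the shift visible, with the first bases of the circle in capitals.
Asph, circRNA1587, chr4:9583813-9610938, minus strand: caagacacaccaccaGCCTTAAAGAAAGAT
Asph, mmu_circ_0001182, chr4:9583812-9610938, minus strand: aagacacaccaccagGCCTTAAAGAAAGAT
Arl8b, mmu_circ_0012927, chr6:108813627-108818613, plus strand: aaaaggataatatagTCCGGTCAATTCAGT
Arl8b, circRNA4830, chr6:108813628-108818613, plus strand: aaaaggataatatagCCGGTCAATTCAGTG

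circRNA1587 of Asph had 7, 13 and 0 reads on the HFD and 6, 7 and 3 on the LFD, and its second entry had 8 reads, all in HFD 3. The Arl8b member had 14, 13 and 8 reads and 0, 9 and 11 reads, and its second entry had 4 reads in LFD 1. circRNA645 of Ttc39c had 29, 21 and 0 reads and 15, 18 and 32 reads, and its second entry had 20 reads in HFD 3. The empty library was thus filled in each of these circles. The same held for mmu_circ_0002861 of Egfr, the epidermal growth factor receptor gene (16, 13, 7, 0, 8 and 26 reads in HFD 1 to 3 and LFD 1 to 3, with 4 more in LFD 1), for mmu_circ_0012466 of Prkag2, an AMPK subunit gene (5, 0, 12, 5, 8 and 3 reads, with 8 more in HFD 2), and for mmu_circ_0001350 of Ube2k (3, 28, 10, 9, 15 and 0 reads, with 5 more in LFD 3).

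**Figure D5:**
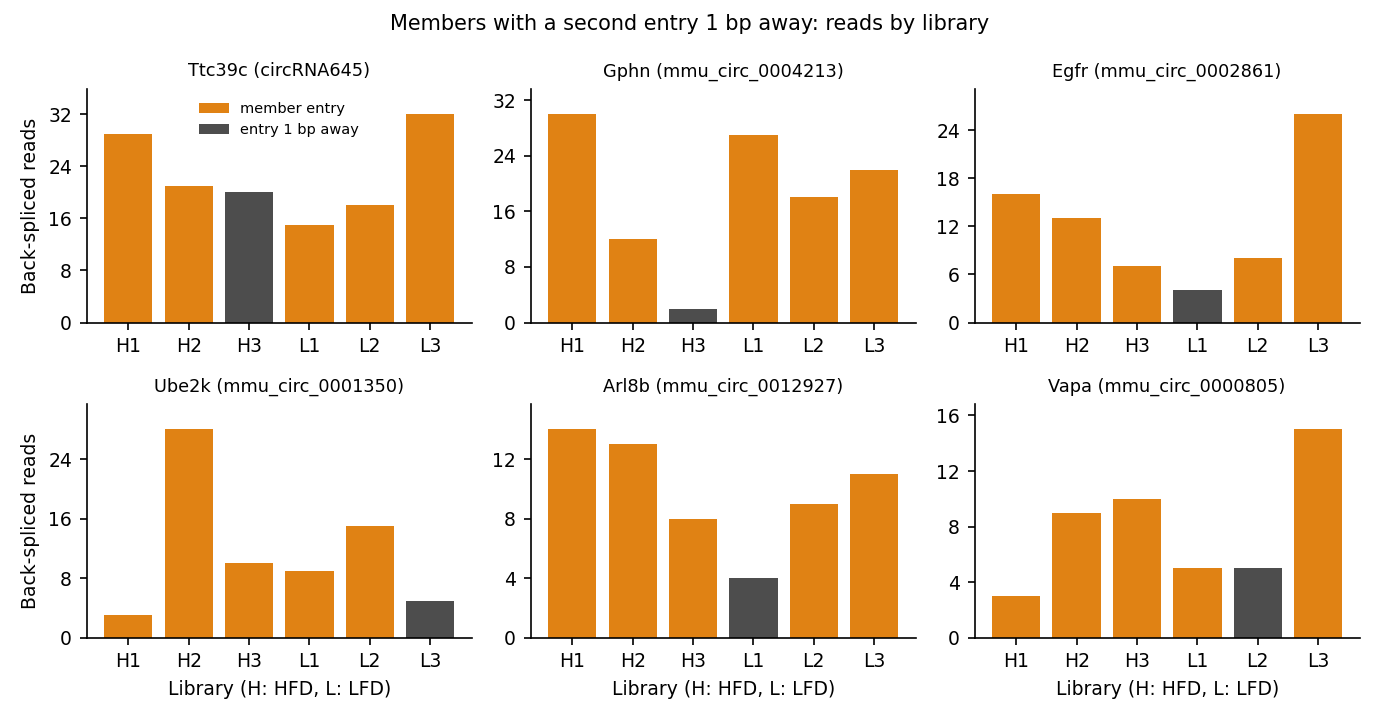
Back-spliced reads by library (HFD 1 to 3, then LFD 1 to 3) of the 6 members with most reads among those that have a second entry 1 bp away, with the member's reads in orange and the second entry's in grey. Each grey bar stands where the member had 0 reads, such as the 20 reads of the second Ttc39c entry in HFD 3.

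Summing the entries brought 75 further circles into the set, which then numbered 420, with 232 found in all 6 libraries. The gained circles had up to 108 reads. The circle with 108 is that of Hnrnpu, a nuclear RNA-binding protein gene, whose 2 entries gave 16, 12 and 15 reads on the HFD and 7, 20 and 38 on the LFD. That of Cdk17, a cyclin-dependent kinase gene, gave 9, 7 and 10 reads and 9, 4 and 18 reads. Both have reads in all 6 libraries only when their entries are added.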

How the data were processed

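Ribosome-depleted liver RNA was sequenced from 3 HFD and 3 LFD mice. The study's methods describe RNase R treatment, which the sample labels do not name, and mapping with Bowtie2, TopHat2 and TopHat-Fusion after Cutadapt, with circRNAs called by CIRCExplorer2 and CIRI. The submitters' processing notes list TopHat2 2.0.4, cutadapt 1.9 and the build mm9, but the deposited positions coincide with exons of GENCODE M21 on GRCm38, and that build is used here. Of the 333 exonic members, 323 could be placed on the listed isoform. Exon numbers, introns and sequences come from that annotation and its transcripts.

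The authors deposited a count of back-spliced reads for each circRNA and library, with no normalization, and the SRPBM signal, which equals the count times 1 factor per library (0.229 to 0.277 per read). Replicate numbers come from the sample titles. The members and gene lists were chosen with earlier results of these data known.

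Any circRNA that had reads in 2 or more libraries, 2041 in all, entered a fit with edgeR's quasi-likelihood test (TMM, two-sided, no covariates), and p-values were adjusted by the Benjamini-Hochberg method over all of them. All 345 members passed this filter, which their detection ensures. The thresholds were p below 0.05 and an absolute log2 fold change of 1. The test was tried on simulated data with 200 changed circRNAs, whose outcome is not given here and bears on no call. Nothing in the labels separates biological from technical spread beyond 1 library per sample, so the p-values measure the spread between these samples. Named members are the 10 most abundant, those past the thresholds, the 3 most abundant of each list, the 3 steadiest and 3 most variable with at least 60 reads, and hosts of 3 or more members, of which the text names most. Other members were chosen with their values in view. The alternatives were other scalings, filters, tests and designs, each library left out, and entries 1 bp apart summed. The Q30 class effect, the separation of diets under other scalings and the shares among circRNAs with reads in at least 3 or 4 libraries were added after seeing the data. Fits ran in R 4.3.3 (edgeR 4.0.16, DESeq2 1.42.0, limma 3.58.1). Tables and plots were made in Python 3.11.15 using matplotlib 3.10.9, SciPy 1.17.1, pandas 2.3.3 and NumPy 2.4.6. Results for some host genes are not reported here.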

Additional observations from a re-analysis of the deposited data

How the results depend on the processing

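The number of members past the unadjusted diet thresholds was 1 in the fit used, and 2 with library totals without TMM, with library sizes implied by the SRPBM factor, with a filter of reads in at least 4 libraries, with the 4 libraries of the lower Q30 class only, with limma on log2(SRPBM + 1) and with entries 1 bp apart summed. It was 0 with the edgeR exact test. With 1 library left out it was 0 to 4, with 0 without HFD 3, 4 without HFD 1 and 2 without LFD 3. The share of all circRNAs tested that passed was 2.4% in the fit used. It is not given for the alternatives, so their counts cannot be set against a background. With a replicate block it was 1, although the log2 fold change of the Me1 circle was then -1.86 and no longer passed. The sample labels name no pairing of the mice, and the study's methods state that mice were divided into the diets at random. The deviations of libraries with the same replicate number correlated at -0.06, 0.16 and -0.11 over the 345 members. Such correlations over low counts cannot show whether mice were paired. The number of circRNAs found in at least 5 libraries was 240 when a library needed 2 reads and 178 when it needed 3. The median variance over mean was 1.47 for members in all 6 libraries and 1.5 to 1.67 with 1 library left out. The number of members with every HFD library below was 10 with TMM-scaled counts and 1 with counts, against 6 in SRPBM. With limma both members past the thresholds were higher on the HFD, and the call of the Me1 circle was lost (log2 fold change -1.07). In that fit 20 of the 345 members had an unadjusted p below 0.05, against 1 with edgeR. No limma share over all circRNAs tested is given, so this rise is not read as more differences between diets. No called value changed its sign. The median depth was 4 or 5 reads per member and library.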
